A study of Mus musculus with 12 samples.

Results

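The NF-kB regulators Nfkbia, Nfkbie and Bcl3 and the leukocyte adhesion genes Icam1, Cd44, Jam2, Itgb3 and Edil3 were followed in the oviducts of mice with and without estrogen receptor alpha (ESR1). These 8 of the 18194 genes named on the array, each read by 1 of its 45101 probe sets, were selected on measured values. All are listed in the study's table of genes that differed across the 12 arrays, and they were chosen by their difference of at least 2-fold between PMSG-treated ESR1KO and PMSG-treated WT mice and by the immune pathways that these changed genes were assigned to. Values in that contrast are therefore given for the 8 genes as a description, with no test.

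Whole oviducts came from immature female mice on a C57BL/6 background, untreated at 23 days of age (WT and ESR1KO) or collected 48 h after 5 IU of pregnant mare serum gonadotropin (PMSG), a gonadotropin that stimulates growth of ovarian follicles and their production of estradiol, given at 23 days (PMSG-treated WT and PMSG-treated ESR1KO). ESR1KO mice were ESR1-/-, with or without Zp3Cre, which drives recombination in the oocyte and so gave a deletion in all tissues. The animals called WT were sibling controls that carried 1 floxed and 1 deleted copy of ESR1 (ESR1flox/-), also with or without Zp3Cre, so that every group carried at least 1 deleted copy. Each group had 3 arrays, each of RNA pooled from 3 to 4 mice, with different mice in each. PMSG-treated mice were also 48 h older than untreated mice, so age and PMSG cannot be told apart.

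NF-kB is a family of transcription factors that inhibitors of the IkB family hold in the cytoplasm until signals from cytokine and microbial receptors lead to their breakdown. NF-kB in turn activates genes for cytokines, for adhesion molecules such as Icam1 and for its own inhibitors, which makes a feedback loop. Leukocytes leave the blood by binding such molecules with integrins and other receptors, and estradiol, the ligand of ESR1, is known to restrain NF-kB signalling in many cells.

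The starts of the 3 IkB family genes are shown because each holds the letters of the kappaB motif, to which NF-kB binds. The stretches run from 130 bases before to 25 bases after the annotated start (RefSeq sequence, build GRCm38.p6, 5′ to 3′ on the strand of the gene), with the kappaB motif in capitals.
Nfkbia, chr12:55492623-55492777 (minus strand): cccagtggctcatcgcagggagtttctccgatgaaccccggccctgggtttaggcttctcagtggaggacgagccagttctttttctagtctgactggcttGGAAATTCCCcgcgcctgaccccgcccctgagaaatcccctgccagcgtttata
Nfkbie, chr17:45555570-45555724 (plus strand): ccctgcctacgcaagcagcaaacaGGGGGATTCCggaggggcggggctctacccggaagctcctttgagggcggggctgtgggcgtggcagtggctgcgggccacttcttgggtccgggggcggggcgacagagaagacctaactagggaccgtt
Bcl3, chr7:19822731-19822885 (minus strand): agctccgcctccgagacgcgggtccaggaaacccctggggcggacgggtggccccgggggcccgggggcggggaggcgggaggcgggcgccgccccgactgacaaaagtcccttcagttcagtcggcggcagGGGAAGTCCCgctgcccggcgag
The motif began 29 bases before the start of Nfkbia, on the opposite strand, and 106 bases before that of Nfkbie. In Bcl3 it began at base 3 from the start and could be read on both strands. Sequences of 250 bases before to 50 bases after the start were at hand for 5 of the 8 genes (Nfkbia, Nfkbie, Bcl3, Icam1 and Cd44) and were searched on both strands. The kappaB motif was found in 3 of these 5 and in 8.46% of 32851 mouse promoters, and not in the Icam1 and Cd44 windows. The Sp1 GC box (GGGCGG) was found in 5 of 5, against 35.7% of all promoters, and lay on the same bases as no kappaB motif. The AP-1 motif (TGACTCA or TGAGTCA) was found in Nfkbie, against 5.20% of all promoters. The letters of the TATA box (TATAAA) were found in Nfkbia and Icam1, against 13.6%. They lay after the start in both genes, from base 20 in Nfkbia, on the opposite strand, and from base 14 in Icam1. The full estrogen response element was in no window of the 5 and in 0.07% of all promoters, and its repeated unit (GGTCA) was in Nfkbia alone, against 40.5%. These are matches of letters, not measured binding sites.

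**Figure D1:**
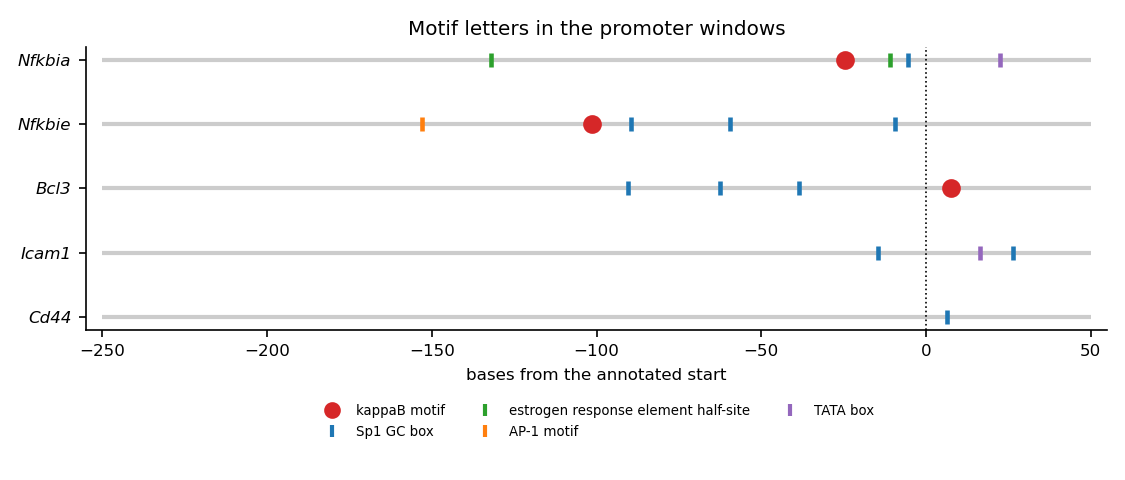
Positions of motif letters (circles for the kappaB motif, ticks for the others) in the windows of 250 bases before to 50 bases after the annotated start of 5 genes, in bases from the start. The kappaB motif is in the 3 IkB family genes and not in the Icam1 and Cd44 windows.

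Values are log2 signals of single probe sets, and 4 was taken as the level near background. The deposited table's rows follow 2 orders, so that the row of each gene in every array was located by matching the study's own statistics, and the names of the rows rest on that match. On the array 26 probe sets carry the symbols of the 8 genes, of which 8 were located in all 12 arrays. The others can be read in untreated ESR1KO alone. Bcl3 and Icam1 have 1 probe set each. Among the 5 Nfkbia probe sets the located one was the dimmest in untreated ESR1KO, at 6.49 ± 0.13 (mean ± SD, n = 3), whereas the other 4 had means of 11.30, 12.37, 12.99 and 13.54. For Nfkbie the other probe set was brighter as well, at 8.02 ± 0.57. Arrays of a group correlated with each other at a mean r of 0.9716 or more over all probe sets. PMSG-treated WT replicate 3 was the array least like its group, at 0.9716. Of 3 untreated ESR1KO arrays, replicate 2 was the nearest to the WT mean in 48.3% of the 1997 located rows. Esr1, the targeted gene, read 12.94, 12.92 and 13.05 in WT and 10.42, 12.13 and 11.05 in ESR1KO, with replicate 2 again the highest. With PMSG it read 12.62, 12.82 and 12.21 in WT and 10.11, 10.62 and 10.56 in ESR1KO. Where this probe set lies relative to the deleted part of the gene is not given in the sources used here, so it does not check the deletion.

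Nfkbia encodes IkB alpha, the inhibitor that is broken down and made anew as NF-kB is switched on and off. Its probe set read 7.03, 7.07 and 7.18 in WT and 6.64, 6.44 and 6.39 in ESR1KO. After PMSG it read 7.09, 7.23 and 6.70 in WT and 5.81, 5.91 and 5.50 in ESR1KO. All 6 ESR1KO arrays lay below all 6 WT arrays, and the PMSG-treated ESR1KO arrays were the lowest. The ESR1KO minus WT difference in untreated mice was a log2 value of -0.60 ± 0.19 (SE; 1.52-fold) and did not pass the test (limma, adjusted p at most 0.421). These values belong to the dimmest of 5 probe sets, and how the 4 brighter ones behaved in the other groups was not analysed here.

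Nfkbie encodes IkB epsilon, an inhibitor that also holds NF-kB dimers in the cytoplasm. It read 4.04, 4.03 and 4.09 in WT, next to the background level, and 5.98, 5.32 and 5.16 in ESR1KO. After PMSG the values were 3.77, 3.97 and 3.73 in WT and 4.87, 5.71 and 5.76 in ESR1KO. Its level was higher in ESR1KO than in WT, by a log2 difference of 1.43 ± 0.27 (2.70-fold, limma, adjusted p at most 0.0337). Without any 1 untreated array the bound rose to between 0.0669 and 0.167. As the WT signal was near background, where signals are compressed, the fold is uncertain.

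Bcl3 encodes an IkB family protein that acts mainly in the nucleus, together with NF-kB p50 or p52. It read 4.46, 4.21 and 4.62 in WT and 5.85, 4.86 and 5.37 in ESR1KO. After PMSG it read 4.17, 4.57 and 4.56 in WT and 5.30, 6.03 and 5.72 in ESR1KO. Every ESR1KO array was above every WT array, with untreated ESR1KO replicate 2 the closest. The difference without PMSG was 0.93 ± 0.28 on the log2 scale (1.91-fold), with an adjusted p of at most 0.329 (limma). Without ESR1KO replicate 2 it was 1.18, and without replicate 1 it was 0.68. Nfkbie and Bcl3 thus stood above WT in both ESR1KO groups and Nfkbia below it, each on its own probe set.

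Icam1 encodes the endothelial and epithelial ligand to which leukocytes bind with beta 2 integrins. Its single probe set read 6.93, 6.87 and 6.97 in WT and 8.74, 8.13 and 8.15 in ESR1KO. With PMSG it read 6.84, 6.94 and 6.73 in WT and 8.74, 8.85 and 8.63 in ESR1KO. The 6 WT arrays lay within 6.73 and 6.97, and no ESR1KO array was under 8.13. Icam1 was higher in ESR1KO than in WT by a log2 difference of 1.42 ± 0.18 (2.67-fold, limma, adjusted p at most 0.00531). The call held without each array in turn, with a bound of at most 0.0397, and was lost when the 6 untreated arrays were fitted alone (0.0692).

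Cd44 encodes the hyaluronan receptor by which leukocytes and many other cells hold to matrix and endothelium. It read 10.07, 10.04 and 10.10 in WT and 10.66, 10.67 and 10.76 in ESR1KO. After PMSG the readings were 9.95, 9.86 and 9.09 in WT and 10.69, 10.93 and 10.72 in ESR1KO. The groups did not overlap by genotype, and PMSG-treated WT replicate 3 was the lowest array. The untreated difference was 0.63 ± 0.19 (1.55-fold, adjusted p at most 0.353 in limma), below the 2-fold limit. Without PMSG-treated WT replicate 3, which enters this fit through the shared estimate of the spread, the bound was 0.00703.

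Jam2 encodes a junctional adhesion molecule of endothelial and other cell contacts that is also a ligand for integrins. It read 11.05, 10.66 and 10.64 in WT and 11.98, 11.74 and 12.05 in ESR1KO. With PMSG it read 10.77, 10.42 and 10.49 in WT and 12.01, 11.88 and 12.27 in ESR1KO. The level was higher in ESR1KO than in WT by 1.14 ± 0.16 (log2; 2.21-fold, limma, adjusted p at most 0.00757). Without WT replicate 2 the bound was 0.0566, and in the 6 untreated arrays alone it was 0.0521.

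Itgb3 encodes integrin beta 3, which pairs with the alpha v chain in many cells and with the alpha IIb chain in platelets. It read 5.99, 6.41 and 6.34 in WT and 4.15, 5.18 and 4.33 in ESR1KO. After PMSG it read 6.80, 8.08 and 8.55 in WT and 5.10, 5.65 and 5.19 in ESR1KO. The WT arrays were above the ESR1KO arrays with and without PMSG, and the PMSG-treated WT arrays spread over the widest range of any group among the 8 genes. ESR1KO minus WT was -1.69 ± 0.42 on the log2 scale (3.23-fold) without PMSG, with an adjusted p of at most 0.133 (limma). The bound passed under 0.05 without PMSG-treated WT replicate 1 (0.0334) or replicate 3 (0.0434), arrays that enter this fit through the shared estimate of the spread.

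Edil3 encodes a secreted protein that binds integrins on endothelial cells and limits leukocyte adhesion. It read 3.16, 3.55 and 3.22 in WT and 4.63, 4.38 and 3.83 in ESR1KO. With PMSG the values were 3.40, 3.13 and 3.01 in WT and 5.44, 4.62 and 5.76 in ESR1KO. Both WT groups were thus near background, and every ESR1KO array was above every WT array. The log2 difference in untreated mice was 0.97 ± 0.29 (1.96-fold), with an adjusted p of at most 0.324 (limma). The other 5 probe sets of Edil3 were under 4 in untreated ESR1KO.

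**Figure D2:**
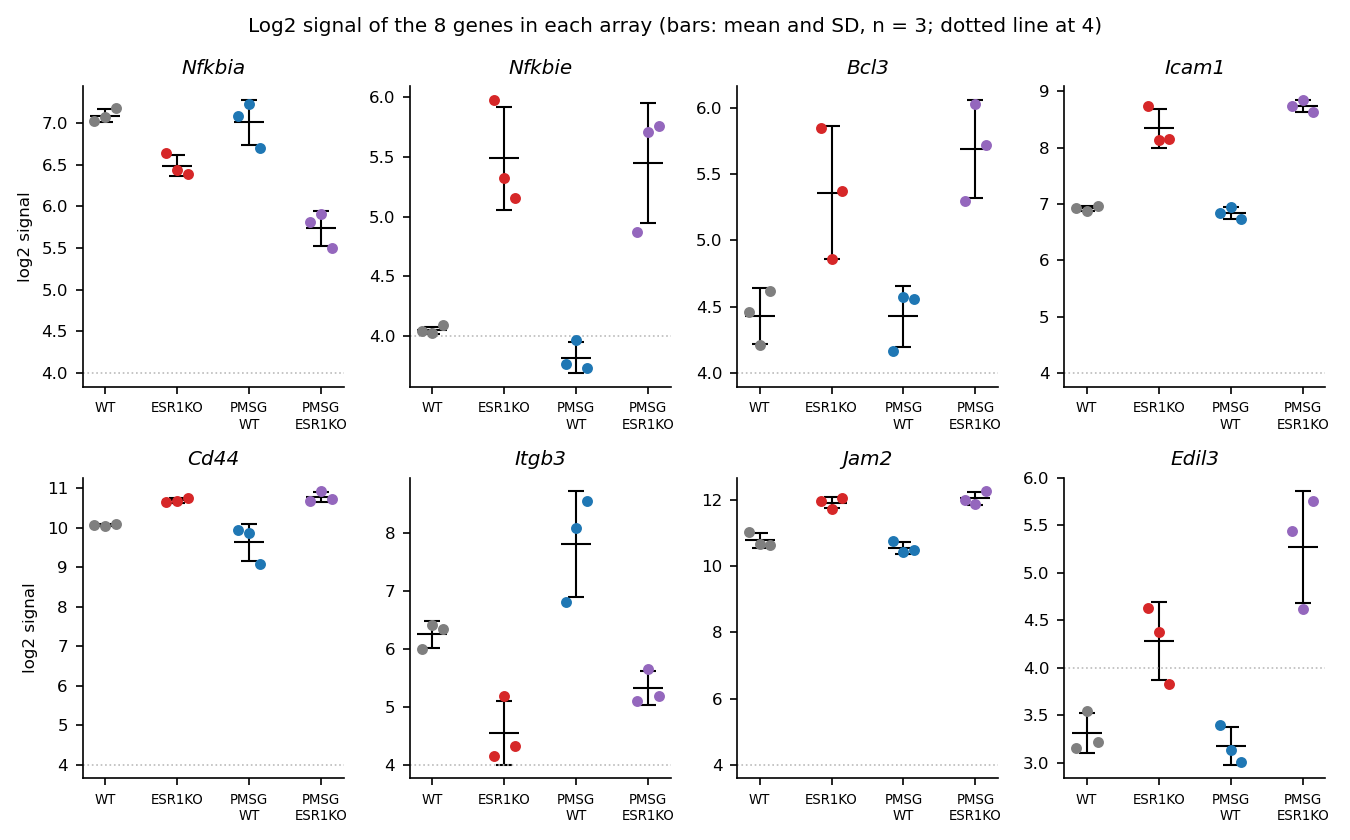
Log2 signal (y axis, a scale of its own for each gene) of the 8 genes in the 12 arrays, by group, with points for arrays, bars for mean and SD (n = 3) and a dotted line at the near-background level of 4. Icam1 lies between 6.73 and 6.97 in the WT arrays and at 8.13 or more in the ESR1KO arrays, and Nfkbia and Itgb3 are the genes that lie lower in ESR1KO.

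The comparison of untreated ESR1KO with WT asks how loss of ESR1 bears on these genes before gonadotropin. Icam1, Nfkbie and Jam2 were called higher, which needed a 2-fold difference beside an adjusted p under 0.05, and 0 of the 8 were called lower by limma. At an unadjusted p under 0.05, 8 of the 8 differed, 2 of them lower (Nfkbia and Itgb3), but so did 70.7% of the located rows. Of the 1997 located rows 9.06% were called higher and 9.01% lower in this comparison. Log2 differences of the 8 genes ranged from -1.69 in Itgb3 to 1.43 in Nfkbie, with a median of 0.95, against a median of 0.15 over the located rows. The located rows did not have to differ 2-fold with PMSG, as the 8 genes did. Their median size of difference with PMSG was 1.01, against 1.56 for the 8 genes (log2). Neither this median nor the shares called are thus a matched background. The WT and ESR1KO arrays did not overlap for 8 of the 8 genes. That was also the case for 78.5% of the located rows, so that it sets the 8 genes little apart. None of these 6 arrays belongs to the contrast that chose the genes, but entry into the study's table rested on all 12 arrays, so the test is not independent of the choice. The adjusted p is an upper bound, since it counts tests that were not run, so a gene with a bound over 0.05 may still have differed.

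With PMSG, ESR1KO and WT differed in the same direction as without it for each of the 8 genes. Log2 differences were -1.27 for Nfkbia (2.40-fold), 1.62 for Nfkbie (3.08-fold) and 1.25 for Bcl3 (2.39-fold) among the regulators. Among the adhesion genes they were 1.90 for Icam1 (3.74-fold), 1.14 for Cd44 (2.21-fold), 1.49 for Jam2 (2.81-fold), -2.50 for Itgb3 (5.64-fold) and 2.09 for Edil3 (4.27-fold). This contrast chose the genes, and nothing is read from its size. For all 45101 probe sets, 2.76% were called higher and 1.72% lower, and the groups did not overlap for 19.6%, as for 8 of the 8 genes. Nearest to the 2-fold limit was Cd44 at 2.21-fold, which came to a log2 difference of 0.87 without PMSG-treated WT replicate 3. Just outside the limit stood Itgb5, an integrin chain that is not among the 8, at 1.98-fold.

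**Figure D3:**
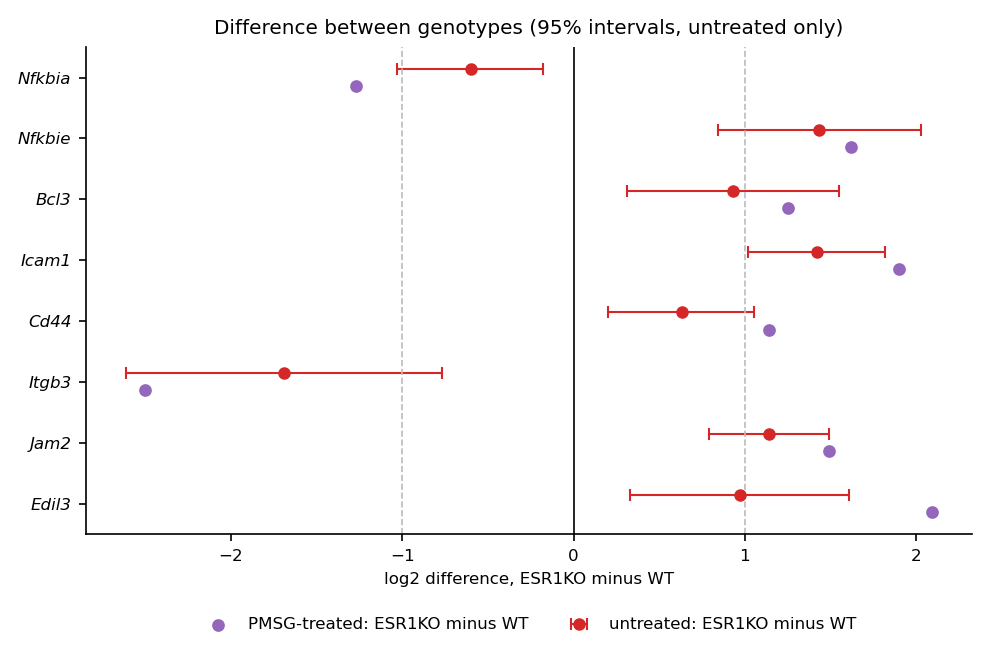
Log2 difference of ESR1KO minus WT (x axis) for each gene, untreated with 95% intervals and PMSG-treated as points alone, since that contrast chose the genes (dashed lines at 2-fold). Without PMSG the values run from -1.69 in Itgb3 to 1.43 in Nfkbie, and with PMSG each gene keeps its direction.

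PMSG in WT mice was compared with no treatment to ask which genes respond when ESR1 is present. Itgb3 had the largest log2 difference of the 8, at 1.57 ± 0.41 (2.96-fold), and its PMSG-treated WT arrays were all above its WT arrays. Its adjusted p was 0.216 (limma), and 0.0375 with a difference of 2.07 without PMSG-treated WT replicate 1. Without replicate 3 of that group the difference was 1.20. The other 7 genes lay between -0.43 for Cd44 and 0.00 for Bcl3, and the Cd44 value was -0.16 without PMSG-treated WT replicate 3. By limma 0 of the 8 were called, against 0.251% of 45101 probe sets, and 1 had an unadjusted p under 0.05, against 9.25% of them. WT and PMSG-treated WT arrays did not overlap for 3 of the 8 genes (Nfkbie, Cd44 and Itgb3), against 13.5% of all probe sets. The located rows, to which the 8 belong, differed more here than all probe sets, with a median size of 0.38 against 0.10 (log2). For the 8 genes it was 0.18, so the 3 of 8 are not read as an excess. This comparison shares the PMSG-treated WT arrays with the contrast that chose the genes.

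In ESR1KO mice, Edil3 and Itgb3 had the largest positive differences with PMSG, at 0.99 ± 0.29 (log2; 1.99-fold) and 0.76 ± 0.42 (1.70-fold), and Nfkbia the largest negative one, at -0.75 ± 0.19 (1.68-fold). None was called by limma, with a bound of 1 for each of the 8 genes, against 0.100% of the 1997 located rows. An unadjusted p under 0.05 was found for 3 of the 8, against 17.4% of the located rows. That bound is loose, as it counts 45101 tests where 1997 rows were located. Nfkbia was the 1 gene of 8 whose treated and untreated ESR1KO arrays did not overlap, against 21.5% of the located rows. For Icam1 the difference was 0.40 ± 0.18, and it was 0.60 without ESR1KO replicate 1 and 0.29 without replicate 2. Nfkbie, at -0.04, had no settled sign, as leaving out 1 array turned it to 0.21 or 0.25.

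The response to PMSG was set against genotype by the interaction of both factors. Edil3 had the largest value, 1.12 ± 0.41 on the log2 scale, followed by Itgb3 at -0.80 ± 0.59 and Nfkbia at -0.66 ± 0.27. By limma 0 of the 8 genes were called, each with an adjusted p of at most 1, against 0.651% of the located rows. At an unadjusted p under 0.05 there were 2 of the 8, against 36.3% of the located rows, so this count was no higher than the background. The 95% interval ran from 0.21 to 2.03 for Edil3, from -1.26 to -0.06 for Nfkbia and from -2.11 to 0.50 for Itgb3. Since the genes were chosen with PMSG, a larger genotype difference there than without PMSG is favoured by the choice.

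**Figure D4:**
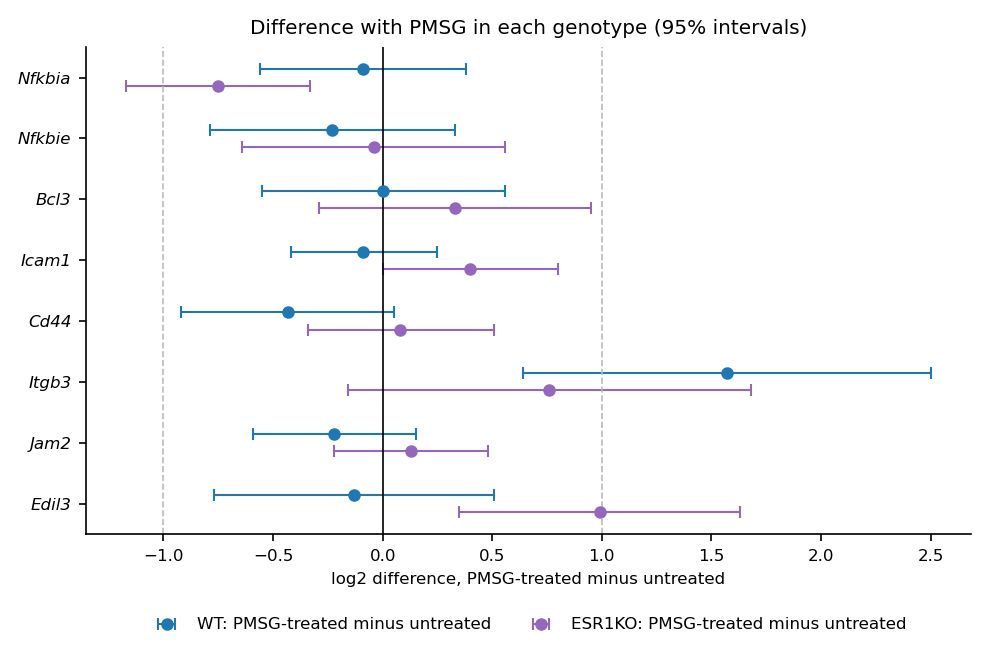
Log2 difference of PMSG-treated minus untreated (x axis) for each gene in WT and in ESR1KO, with 95% intervals (dashed lines at 2-fold). Itgb3 in WT, at 1.57, is the largest value, and Edil3 and Nfkbia in ESR1KO lie at 0.99 and -0.75.

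Other genes of the pathway were taken from 9 lists of NF-kB and adhesion genes with 185 members other than the 8. Of these, 38 were located in all arrays, and the values of the others in all 4 groups were not analysed here. In untreated mice 5 of the 38 were called higher in ESR1KO (13.2%) and 3 lower (7.89%), against 9.06% and 9.01% of the located rows. Their median log2 difference was 0.26, against 0.15 over the located rows. With PMSG 11 were called higher (28.9%) and 7 lower (18.4%), where 28.3% and 20.0% of the located rows were, so these shares were near the background of rows chosen for change. Their median with PMSG was 0.57, against 0.36 over the located rows. In WT mice 3 were called higher with PMSG, against 2.70% of the located rows.

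Upstream of NF-kB, 2 of 5 located receptors were called higher in untreated ESR1KO, against 9.06% of the located rows, with a list median of 0.66. A count this small does not set the list apart from that share. Il18r1, the ligand-binding chain of the IL18 receptor, was higher by 2.91 ± 0.40 (log2; 7.52-fold, limma, adjusted p at most 0.00751) and Il17rb, the IL25 receptor, by 1.86 ± 0.37 (3.64-fold, at most 0.0418). With PMSG their differences were 4.28 and 3.85. Il1r1, the signalling receptor for IL1, was called higher with PMSG, at 1.10, and Il17ra, the shared chain of the IL17 receptors, lower, at -1.17. Of 5 located kinases and activators 0 were called without PMSG by limma, and 5 had an unadjusted p under 0.05, which 70.7% of the located rows had as well. Myd88, the adaptor of IL1, IL18 and Toll-like receptors, was called higher with PMSG, at 1.05, and Birc3 (0.94), Malt1 (0.67) and Birc2 (0.64) were not called there. Birc2 missed the call by the fold minimum alone (limma, adjusted p 0.0147). Nfkb1, the one NF-kB subunit located, gave 0.21 without and 0.47 with PMSG, and Nkiras1, an NF-kB inhibitor, -0.53 and -0.91, and neither was called. With PMSG Nkiras1 missed the call by the fold minimum alone (1.88-fold, limma, adjusted p 0.00299). No member of the IkB family other than Nfkbia, Nfkbie and Bcl3 was located.

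Known target genes of NF-kB went both ways. Of 7 located, 1 was called higher and 1 lower without PMSG, with a list median of -0.65, and 3 higher and 2 lower with it. Over the located rows the shares were 9.06% higher and 9.01% lower without PMSG, and 28.3% and 20.0% with it. Counts this small do not set the list apart from those shares. Csf3, the granulocyte growth factor, was lower in ESR1KO by -3.54 ± 0.67 (log2, 11.6-fold, limma, adjusted p at most 0.0337), and with PMSG by -4.61. It read 4.16, 7.03 and 4.09 in ESR1KO, so that replicate 2 stood near WT, which read 8.16, 8.67 and 9.05. With PMSG, Ier3 was called lower, at -1.51, and Cfb, a complement factor, and Mmp9, a matrix protease, higher, at 1.50 and 1.49. Without PMSG Mmp9 had the opposite sign, at -0.65, and was not called. Its interaction was 2.14 ± 0.37 and was not called either. Lcn2, a siderophore-binding protein of epithelium and neutrophils that is named here after its values were seen, was higher without PMSG by 3.42 ± 0.23 (10.7-fold, limma, adjusted p at most 0.000245). With PMSG its difference was 1.38, and in WT it was called higher with PMSG, by 1.90 ± 0.21 (adjusted p 0.0113). The interaction for Lcn2 was -2.05 ± 0.33 and was not called (adjusted p at most 0.109).

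Among adhesion molecules of the immunoglobulin and selectin families, 2 of 9 located were called higher and 1 lower without PMSG, and the same counts were found with it. Of the located rows 9.06% were called higher and 9.01% lower without PMSG, and 28.3% and 20.0% with it, so counts this small do not set the list apart. L1cam, a neural and leukocyte adhesion molecule, was higher by 2.14 ± 0.31 (log2; 4.42-fold, limma, adjusted p at most 0.00890) and Podxl, a ligand for selectin, by 1.31 ± 0.22 (2.48-fold, at most 0.0194). Pecam1, which joins endothelial cells and lets leukocytes pass, was lower by -3.24 ± 0.52 (9.45-fold, limma, adjusted p at most 0.0158), and with PMSG by -1.26. It read 8.03, 8.54 and 7.88 in WT and 4.32, 6.35 and 4.06 in ESR1KO. All but replicate 2 of these ESR1KO arrays stood close to the background level of 4, so the fold without PMSG is uncertain. Icam2, the endothelial relative of Icam1, gave -0.70 without and -0.73 with PMSG and was not called. Icam1 and Icam2 thus had opposite signs in both comparisons.

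Of 5 located integrin chains 0 were called without PMSG by limma (2 at an unadjusted p under 0.05, against 70.7% of the located rows). With PMSG Itgae was called higher, at 1.22, and Itga8 lower, at -1.50. Itgae had means under the background level of 4 in WT (3.94) and PMSG-treated WT (3.60), so its fold is uncertain. Itgb5, another partner of the alpha v chain, gave 0.85 and 0.98, and Itga1 gave -0.94 and -0.52. In both comparisons Itgb5 missed the call by the fold minimum alone (limma, adjusted p at most 0.0465 without PMSG and 0.009 with it). In WT, Itga8 was higher with PMSG by 2.70 ± 0.30 (log2; 6.50-fold, limma, adjusted p 0.0105), in the same direction as Itgb3. In ESR1KO, Itga8 gave 1.38 ± 0.30 with PMSG (2.60-fold), and its treated and untreated arrays did not overlap, but it was not called. Its interaction was not called either. Of 5 located integrin ligands 1 was called lower without PMSG, and 1 higher and 2 lower with it. Of the located rows 9.06% were called higher and 9.01% lower without PMSG, and 28.3% and 20.0% with it. Counts this small do not set the chains or the ligands apart from those shares. Fn1, which encodes fibronectin, was lower in ESR1KO by -2.74 ± 0.41 (6.68-fold, limma, adjusted p at most 0.0109), and by -2.71 with PMSG. With PMSG, Npnt was called higher, at 1.26, and Postn lower, at -1.02. Without PMSG Npnt had the opposite sign, at -0.60, and was not called. Its interaction was 1.86 ± 0.37 and was not called either. Hmmr, another hyaluronan receptor, gave -0.72 with PMSG and was not called.

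**Figure D5:**
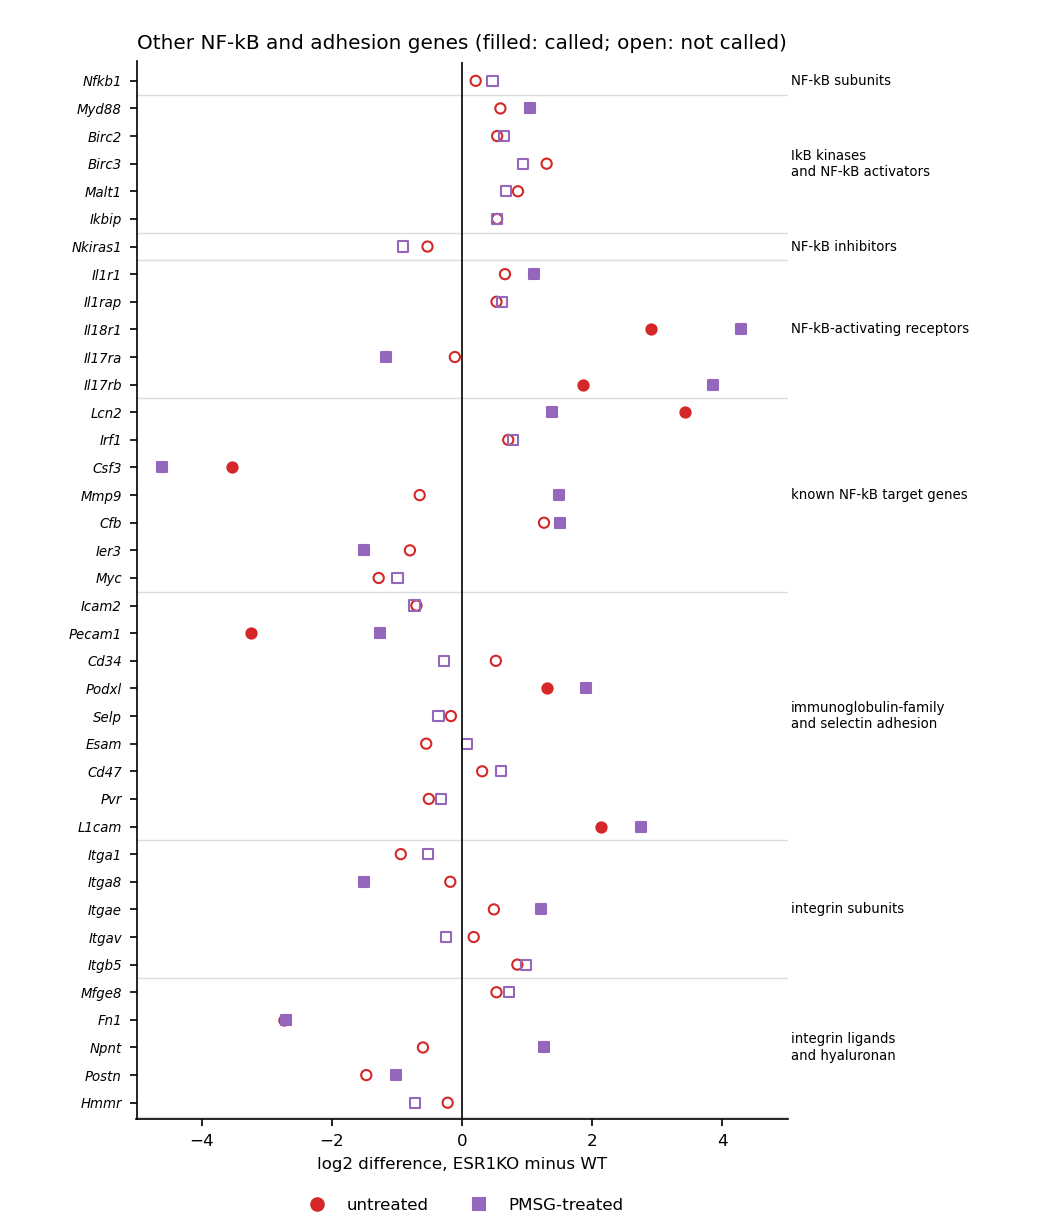
Log2 difference of ESR1KO minus WT (x axis) for the 38 located genes of the NF-kB and adhesion lists, without PMSG (circles) and with PMSG (squares), filled where called. Il18r1 and Il17rb lie at 2.91 and 1.86 without PMSG, and Csf3, Pecam1 and Fn1 at -3.54, -3.24 and -2.74. For Csf3 and Pecam1 all untreated ESR1KO arrays but replicate 2 were close to the background level of 4.

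The RNA came from whole oviducts, in which fewer cells of a type and less RNA per cell cannot be told apart. In untreated ESR1KO, where each probe set has its name, markers of epithelium (10 of 10), smooth muscle (5 of 5), stroma (5 of 5), mesothelium (4 of 4), endothelium (9 of 10), leukocytes in general (8 of 8) and macrophages (5 of 5) had a mean signal of 4 or more on the brightest probe set. T cell (0 of 4) and B cell (0 of 2) markers did not, nor did the neutrophil granule genes Camp, Ngp and Mpo (3 of the 6 neutrophil markers named on the array did), and markers of platelets (2 of 4), fat (1 of 3) and ovary (2 of 5) did in part. Neither the general leukocyte nor the T cell, B cell, epithelial, smooth muscle, ovary and fat markers were located in the other groups.

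Located markers of several other cell types differed by genotype beside the adhesion genes, in both directions. Of 5 macrophage markers 2 were located (Csf1r and Mrc1), and their summed log2 level was 10.06 to 10.30 in WT and 10.97 to 11.43 in ESR1KO. With PMSG it was 10.11 to 10.81 in WT and 11.63 to 11.88 in ESR1KO. The 3 located of 7 neutrophil markers were S100a8, S100a9 and Ltf, which epithelia also express. They summed to 12.43 to 13.08 in WT and 13.85 to 14.52 in ESR1KO, and with PMSG to 11.99 to 12.80 and 14.01 to 14.30. That neutrophil sum was carried by Ltf (means of 12.74 in WT and 14.08 in ESR1KO), so it does not describe all 3 markers. S100a8 and S100a9 had means under the background level in WT (3.42 and 3.13). Without PMSG they were higher in ESR1KO by 3.57 and 2.60 (log2), and S100a8 was called whereas S100a9 was not. The summed level of the 3 located of 10 endothelial markers (Pecam1, Kdr and Emcn) went the other way. It was 9.86 to 10.28 in WT and at most 8.92 in ESR1KO, and with PMSG 9.65 to 9.98 and 9.25 to 9.53. Emcn was the brightest of the 3 in WT (a mean of 9.24). Pecam1 was called lower in both comparisons. Emcn was called lower without PMSG alone (-1.57, and -0.31 with PMSG) and Kdr in neither (-0.51, and -0.23 with PMSG). Pf4, the 1 platelet marker of 4 located, read 7.54 to 7.79 in WT and 9.32 to 9.92 in ESR1KO, where Itgb3 read lower. With PMSG it read at least 8.60 in WT and 9.57 to 9.76 in ESR1KO. In WT it was called higher with PMSG, by 1.07 ± 0.15 (log2, limma, adjusted p 0.0328), the direction of the Itgb3 value there. The platelet markers Gp9 and Ppbp were under 4 on their brightest probe sets in untreated ESR1KO, so Pf4 alone does not describe platelets. The 3 located of 5 stromal markers went both ways without PMSG, with Col1a2 (-2.34) and Lum (-2.44) called lower and Pdgfra (1.12) called higher in ESR1KO. Col1a2 was read by a dim probe set, with means of 6.75 in WT and 4.41 in ESR1KO. The brightest probe set of every stromal marker read 9.54 or more in ESR1KO. Their summed level overlapped between WT (12.99 to 13.26) and ESR1KO (13.04 to 13.73). In ESR1KO that sum was carried by Pdgfra (a mean of 13.21), so it does not describe all 3 markers. Lrrn4, the 1 located of 4 mesothelial markers, read 8.42 to 9.22 in WT and 10.16 to 10.31 in ESR1KO. The part of these cells in the values of Icam1, Cd44, Jam2, Itgb3 and Edil3 was not tested.

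Over the 12 arrays, the located genes with the pattern most like each of the 8 were taken by Pearson r of the log2 signal. For Icam1 they were Atrnl1 (r = 0.988) and Avpr1a (0.983), for Jam2 Pdgfd (0.981) and Ltbp3 (0.979), and for Cd44 Fmo2 (0.983) and Ctso (0.980). Nfkbie was nearest to Fgf11 (0.977) and Hpca (0.971), Bcl3 to Loxl1 (0.971) and Rbms2 (0.960), and Nfkbia to Prr18 (0.929) and Cldn22 (0.928). Itgb3 was nearest to Npr2 and Gja4 (both 0.962) and Edil3 to Dtna (0.961) and Chl1 (0.955). These r describe 12 arrays that share 4 groups and rows that were chosen for their difference between groups, so high values are common among them.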

How the data were processed

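The authors hybridized pooled oviduct RNA to Affymetrix mouse genome arrays and deposited log2 expression signals made in Partek Genomics Suite 6.6 (GC-RMA background correction, quantile normalization, median polish). No counts or detection calls were used, and precision is limited by 3 arrays a group, whose medians were 5.63 to 5.75. The rows are in the order of the probe set names in the 3 untreated ESR1KO columns alone, and in another, common order in the other 9. Rows were located through the study's table of changed genes, of which 1997 rows (in alphabetical order to Slc27a2) were at hand, by using its fold changes and p-values as a key. All 1997 were located, at a largest distance of 8.76e-05 log2 units, and of 1903 rows with a symbol 1891 agreed. Of these rows 66 had more than 1 candidate, but none of the 8 genes did.

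Differences were tested with limma 3.58.1 in R 4.3.3 (4 group means, variance trend, prior degrees of freedom 2.87, Benjamini-Hochberg adjustment) and a call needed a 2-fold difference beside an adjusted p under 0.05 (the interaction: the adjusted p alone). The comparisons with untreated ESR1KO were fitted on located rows with the prior of the 9-array fit and adjusted as for 45101 tests, which gives an upper bound. The scripts were tested on simulated data. In the lists, values are given for at most 4 genes each, those with the largest difference between PMSG-treated ESR1KO and PMSG-treated WT (Lcn2 and the marker genes were named beside these), and for each of the 8 genes the 2 genes of highest Pearson r are named. The genes and lists were chosen with earlier results of these data known. Alternatives were no variance trend, an unmoderated model, repeated quantile normalization, a filter at a mean signal of 4, a call with no fold minimum, the 6 arrays compared alone, a block for replicate number, and each array left out.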

Additional observations from a re-analysis of the deposited data

How the results depend on the processing

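Of 747 values of single genes under the alternatives, 722 kept their direction and their side of the threshold. For ESR1KO versus WT, 3 of the 8 genes were called, against 0 when the 6 arrays compared were fitted alone, where each group rests on 3 arrays and no other group adds to the spread. Leaving out 1 array gave 1 to 4 called genes, with 1 (Icam1) without WT replicate 2 and 4, Itgb3 added, without PMSG-treated WT replicate 3. Nfkbie was the gene lost in most of these, and the count was 2 with the unmoderated model. For PMSG-treated WT versus WT, leaving out 1 array gave 0 to 1 called gene, with 1 (Itgb3) without PMSG-treated WT replicate 1. With no call to lose, the sign turned for Bcl3 (-0.03 with quantile normalization repeated, and from -0.10 to 0.14 without 1 array) and Nfkbia (0.07 without PMSG-treated WT replicate 3, from -0.20). For PMSG-treated ESR1KO versus ESR1KO, that of Nfkbie ran from -0.20 to 0.25 without 1 array. Between the genotypes after PMSG, 2022 probe sets were called, against 1255 with the unmoderated model, 3065 with no fold minimum, 1313 in the 6 arrays alone and 1248 to 2422 without 1 array. The cause of these shifts was not tested.

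Same replicate numbers did not clearly pair the arrays. In the located rows, deviations from the group means correlated at -0.114 to 0.265 between arrays of 1 number (median 0.0575, 18 pairs) and at a median of -0.0363 between others. As deviations within a group offset each other, these medians depend on one another, and the check cannot show that the arrays were unpaired. With the replicate number as a block, 2 genes were called in ESR1KO versus WT (Nfkbie at 0.0808 was not), 0 in both PMSG comparisons and in the interaction, and 1926 probe sets between the genotypes after PMSG. A full row order of the 9 columns and the other probe sets of each gene were not run, as those rows could not be located. Signals near background limit Nfkbie and Edil3 most, and Bcl3 in WT (a mean of 4.43) and Itgb3 in ESR1KO (4.55) were also weak.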
